A study of Schizosaccharomyces pombe with 27 samples.

Results

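A segment of chromosome II of the fission yeast Schizosaccharomyces pombe carried about 2 times as many sequencing counts in the 4×Polδ strain RZ112 as in the other strains, and it was examined here with the sequence on either side of it. The segment runs from 4161001 to 4218000, and 30 kb of flank was taken on each side, so that the region comprised 390 of the 41908 bins of 300 bp in the genome, 190 in the segment and 100 in each flank. The segment was chosen by its total counts in RZ112 relative to the other strains, so the totals are given as a description, without a test. The tests concern how counts were divided between the 2 DNA strands, which did not enter the choice.

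The counts came from polymerase usage sequencing (Pu-Seq), which maps ribonucleotides that a mutated DNA polymerase leaves in the genome. There were 9 strains, 3 for each polymerase read out, and each strain was grown untreated in YES medium in 2 experiments. Experiment 1 has 2 samples per strain, labelled tech 1 and tech 2 without further detail. They are called runs here and were summed, so that 27 samples gave 18 libraries. In 4×Polδ strains 3 extra sets of the 4 Polδ subunit genes (cdc1, cdc27, cdc6 and cdm1) were integrated on chromosome I, in 2×Polδ strains 1 extra set, and WT strains had none. The sets carried markers, ura4 in 2×Polδ strains and ura4, kanR and natR in 4×Polδ strains. These strains thus hold a ura4 copy besides the ura4-D18 allele named below. The Polδ readout strains were RZ112 (4×Polδ), RZ57 (2×Polδ) and 856 (WT), in which every copy of cdc6, native and integrated, carried the L591G allele. The Polα readout strains, with pol1 L850F, were RZ116 (4×Polδ), RZ68 (2×Polδ) and 1141 (WT). The Polε readout strains, with cdc20 M630F, were RZ118 (4×Polδ), RZ62 (2×Polδ) and 655 (WT). All 9 were h- leu1-32 ura4-D18 and lacked rnh201, the catalytic subunit of RNase H2, which was replaced by hygR in the 4×Polδ and 2×Polδ strains and by kanR in WT. They were ade6-704, except 655, whose ade6 allele was not specified. Each genotype with each readout was thus 1 strain. The p-values below measure the spread between the 2 experiments of a strain, which the main fits shared over all 9 strains. They do not measure that between independently built strains. The study prepared 2 sets of libraries for every strain, each with another protocol. The spread between experiments may thus include a difference between protocols, and the main fits had no term for the experiment.

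In replication Polε synthesises most of the leading strand, while Polα starts and Polδ extends the Okazaki fragments of the lagging strand. The polymerase track is the count on the top strand minus that on the bottom strand, divided by their sum, in a bin or window. A positive Polδ or Polα track marks lagging-strand synthesis of the top strand, as made by forks that move leftwards, and a Polε track has the opposite sign. Tracks of Polδ therefore drop from positive to negative across an origin of replication, and climb back where forks from neighbouring origins meet. Long terminal repeats (LTRs), some of which lie at the edges of the segment, are the end sequences of Tf retrotransposons and stand alone at many places in this genome.

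The DNA at both edges of the segment held an annotated LTR, one of 306 bp at chrII:4160955-4161260 and one of 347 bp at chrII:4217977-4218323. They are 2 of the 3 LTRs annotated in the region and 2 of 238 in the genome. Aligned with blastn, 238 columns spanning the left and right edges matched at 205 positions, an identity of 86.1% with 5 gaps. The stretches aligned in the same orientation and their starts were 57.023 kb apart, and the longest run of identical bases was 37. The annotation, in contrast, puts the left LTR on the + strand and the right LTR on the - strand. A shorter second stretch of 67 columns (82.1% identity) followed at chrII:4161201-4161267 and chrII:4218265-4218330. The aligned stretches are shown because they lie where the change in counts was found. They are the top strand of the ASM294v3 assembly in RefSeq, at chrII:4160939-4161175 and chrII:4217962-4218195, with capitals for bases that differ from the partner or face a gap in it.
left-edge repeat: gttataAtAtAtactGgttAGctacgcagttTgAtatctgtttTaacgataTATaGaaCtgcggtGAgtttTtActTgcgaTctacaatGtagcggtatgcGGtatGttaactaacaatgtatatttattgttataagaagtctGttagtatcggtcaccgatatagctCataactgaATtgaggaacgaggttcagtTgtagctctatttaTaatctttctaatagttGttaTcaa
right-edge repeat: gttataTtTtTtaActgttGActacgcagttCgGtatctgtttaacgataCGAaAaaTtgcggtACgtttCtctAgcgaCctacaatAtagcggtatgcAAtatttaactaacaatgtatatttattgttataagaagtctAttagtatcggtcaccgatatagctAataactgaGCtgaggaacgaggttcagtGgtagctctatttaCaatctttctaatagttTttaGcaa
The capitals number 32 in the left-edge repeat and 29 in the right-edge repeat. The third LTR, at chrII:4231522-4231869 in the right flank, aligned to the edges only over stretches of 49 to 64 columns and in the opposite orientation. It is annotated on the + strand, like the left LTR.

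The third sequence shown is the 300 bp bin at the centre of the strongest origin in the segment, chrII:4202701-4203000, since the fork directions described below turn round at it. Its capitals mark its longest run without G or C.
peak bin of the strongest origin in the segment: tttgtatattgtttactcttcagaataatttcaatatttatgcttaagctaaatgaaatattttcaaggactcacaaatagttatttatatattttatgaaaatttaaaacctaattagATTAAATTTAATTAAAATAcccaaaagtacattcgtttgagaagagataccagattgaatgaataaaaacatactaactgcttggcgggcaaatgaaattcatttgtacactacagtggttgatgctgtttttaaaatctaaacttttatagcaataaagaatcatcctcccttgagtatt
This bin was 74.3% A or T, against a median of 63% over the segment and 64% over all bins, and 2.31% of all bins were at least as rich in A and T. The run in capitals is 19 bases long, and 7.15% of bins held one at least as long. Origins of this yeast are known for A- and T-rich sequence without a strict consensus.

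The segment stood out in RZ112 in both experiments and in none of the other strains. Counts of both strands were first divided by the median bin of each library, and are called levels here. The median level over the segment was 1.78 in experiment 1 and 1.93 in experiment 2 of RZ112. It was 0.953 and 1.00 in RZ57, and 0.979 and 0.973 in 856. Among all 16 libraries of the other strains it lay between 0.953 and 1.05, with a median of 1.02. The RZ112 libraries were thus above every other library, with a wide gap.

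Relative to the mean of RZ57 and 856 in the same experiment, the segment of RZ112 had 1.88 and 2.01 times the level, or 1.94 ± 0.0901 (SD, n = 2 experiments). The ratios of the other 16 libraries to strains of the same polymerase lay between 0.946 and 1.06. Those of 2×Polδ over WT and of WT over 2×Polδ are reciprocals of each other, so they are not separate comparisons. The 16 included 1.04 and 1.05 in RZ116 and 0.988 and 1.01 in RZ118, so the other 4×Polδ strains, which carry Polδ gene sets at the same places, showed no such excess. The left flank of RZ112 had ratios of 1.02 and 1.03 and the right flank 1.01 and 1.05, which lay within the 0.952 to 1.05 seen in the flanks of the other 16 libraries. The plot of totals along the region and that of the library ratios show both features.

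**Figure D1:**
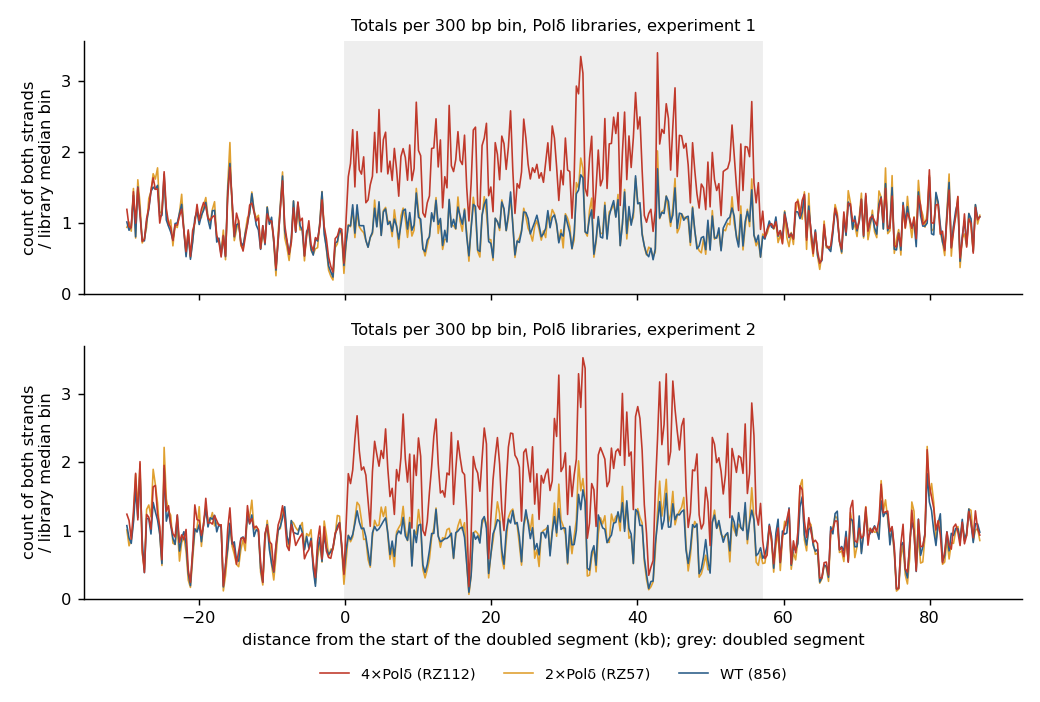
Counts of both strands per 300 bp bin, divided by the median bin of the library, against distance from the start of the segment in kb, for RZ112 (4×Polδ), RZ57 (2×Polδ) and 856 (WT) in experiments 1 and 2. Inside the grey segment RZ112 ran above the other lines, at 1.88 and 2.01 times their level, and outside it the lines overlaid each other.

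**Figure D2:**
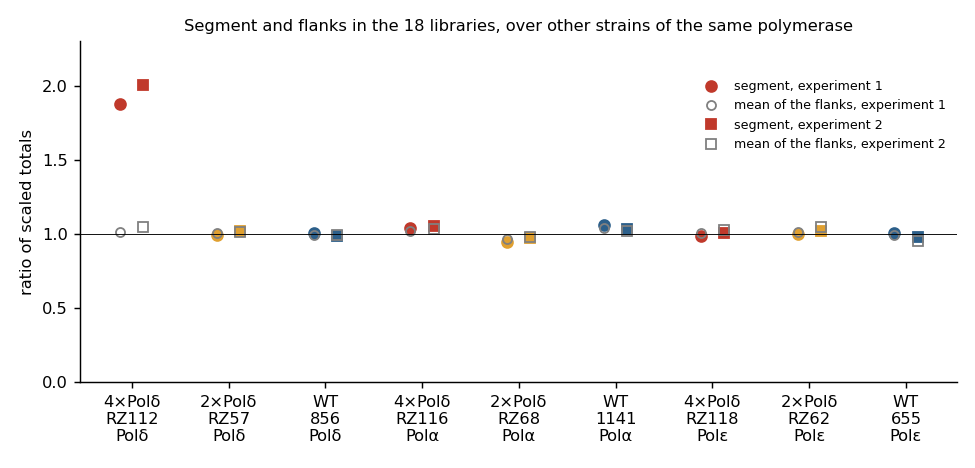
Ratio of scaled totals in each of the 18 libraries, over the other strains of the same polymerase and experiment (4×Polδ over the mean of 2×Polδ and WT, 2×Polδ over WT, WT over 2×Polδ). Filled points are the segment, open points the mean of the flanks, circles experiment 1 and squares experiment 2; the RZ112 segment points sit at 1.88 and 2.01 and the other 16 between 0.946 and 1.06.

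The excess was even along the segment and on both strands. The first, second and last parts of the segment, of 64, 63 and 63 bins, had ratios of 1.86, 1.90 and 1.88 in experiment 1 and 2.02, 1.98 and 2.02 in experiment 2. The ratio of the top strand alone was 1.86 and 2.00, and that of the bottom strand 1.91 and 2.02. The 2 runs of experiment 1, taken apart, gave 1.89 and 1.88. In RZ112 the segment took 0.782% and 0.807% of all counts, against 0.399% to 0.448% in the other 16 libraries, while it makes up 0.453% of the bins. Elsewhere in the genome, 218 blocks of the segment's length gave RZ112 ratios between 0.655 and 1.30, of which the highest was the block that holds cdc6.

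Single bins scattered more. In experiment 1 the ratio over the 190 segment bins had a lowest value of 1.47, a median of 1.88 and a highest of 2.35, and in experiment 2 these were 1.62, 1.99 and 3.61. Flank bins lay between 0.871 and 1.42 in experiment 1 and between 0.714 and 1.58 in experiment 2. Of the segment bins, 189 of 190 reached 1.5 in both experiments, while none of the 200 flank bins did. Over the whole genome 0.583% of bins did so in RZ112, 244 of 41876, and this share includes the 189, leaving 55 elsewhere. The 1 segment bin that did not was the first, at 1.47 and 1.69. No bin of the region reached 1.5 in both experiments in RZ116 or RZ118, where 0.122% and 0.136% of all bins did.

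Base composition moved with the ratio in experiment 2. The 24 segment bins with at least 70% A and T had ratios of 1.83 and 2.44, and the other 166 had 1.89 and 1.98. The 31 flank bins of that kind had 1.01 and 1.21, and the 5936 in the rest of the genome 0.920 and 1.19. In the mean of RZ57 and 856 the median level of such segment bins was 0.738 in experiment 1 and 0.462 in experiment 2, so the highest ratios in experiment 2 rest on sparse bins. The study's libraries came from 2 preparation protocols, and the sources used here do not say which experiment each served. The part of the protocol in this difference was not tested.

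Both edges were placed with a fit that assumes abrupt steps, so it does not show how sharp they were. Fitting 3 constant levels to the log2 ratio per bin placed the doubled stretch from 4161001 to 4218300 in both experiments, a length of 57.3 kb. The inner level was 1.88 and 2.03, the level to the left 1.03 and 1.05 and that to the right 1.02 and 1.06. With single libraries left out, the left edge lay at 4160701 or 4161001 and the right edge at 4218000 or 4218300.

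At the left edge the ratio climbed over 4 bins, 1.25 and 1.22 in the bin at 4160701, 1.47 and 1.69 at 4161001, 1.70 and 1.98 at 4161301 and 1.93 and 1.99 at 4161601. The bin at 4160401 had 1.09 in each experiment. The first doubled bin held 966 and 596 counts in RZ112, 592 and 254 in RZ57 and 622 and 297 in 856, and it overlaps the left LTR. Further left, 3 bins at 4158601 to 4159500, in pgk1, had 1.37 to 1.42 in experiment 1 but 0.84 to 1.02 in experiment 2.

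At the right edge the bin at 4217401 had 1.99 and 1.87, that at 4217701 1.75 and 1.97, that at 4218001 1.41 and 1.53, and that at 4218301 1.00 in each experiment. The bin at 4218001, which lies within the right LTR, held 1064 and 465 counts in RZ112, 705 and 232 in RZ57 and 691 and 245 in 856. Apart from the pgk1 bins in experiment 1, intermediate ratios near the edges were seen in the bins that overlap an LTR and their neighbours. How reads that match both repeats were assigned is not given in the sources used here, so values of these bins are uncertain, and counts alone do not show what underlies the excess.

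**Figure D3:**
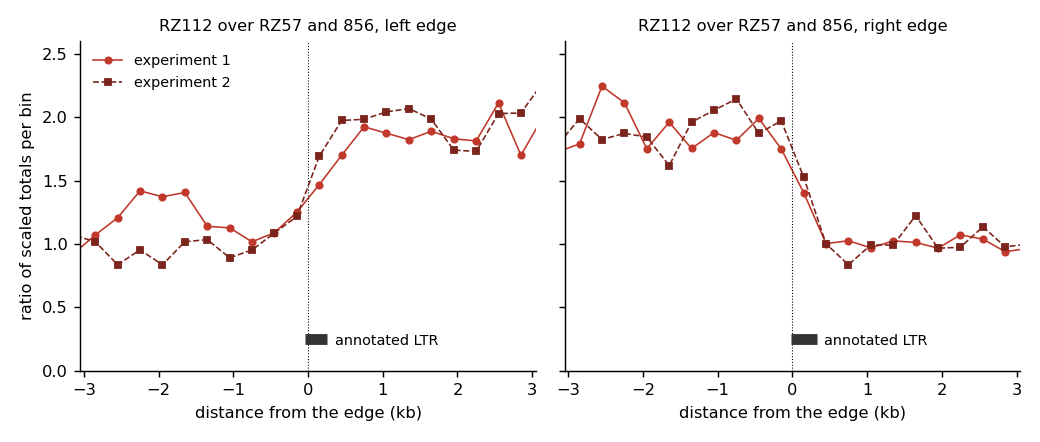
Ratio of scaled totals per 300 bp bin, RZ112 (4×Polδ) over the mean of RZ57 (2×Polδ) and 856 (WT), against distance from the left edge and from the right edge of the segment in kb, in experiments 1 and 2. Dark bars mark the annotated LTRs, and the ratio passes between about 1 and its inner level of 1.88 and 2.03 in the bins at and next to them.

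The doubled stretch held 22 protein-coding genes in full, 20 of them with a standard symbol, together with 40 annotated long non-coding RNAs, 2 genes for 5S rRNA and 1 for an asparagine tRNA. Over single coding genes the RZ112 ratio was 1.81 to 1.96 in experiment 1 and 1.84 to 2.15 in experiment 2, so none was left out. These are DNA counts and carry no information on expression. None of the 4 Polδ subunit genes lies in the region.

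Among genes of metabolism, sam1 (S-adenosylmethionine synthetase) had 1.87 and 1.94. The adenine biosynthesis gene ade8, for adenylosuccinate lyase, had 1.94 and 2.06, and the ribokinase gene rbk1 1.82 and 1.91. The sterol gene erg26 had 1.89 and 1.94, the thioredoxin reductase gene trr1 1.90 and 2.10 and the alkaline phosphatase gene pho8 1.86 and 1.92. All 6 lay near the ratio of the whole segment. In sugar transfer to proteins and the cell wall, alg6 (glucosyltransferase) had 1.85 and 2.15 and gas4 (glucanosyltransferase) 1.95 and 2.02.

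Several genes act in protein turnover and synthesis. The ubiquitin ligase gene doa10 had 1.84 and 2.03, and the proteasome genes rpn1301 and rpn12 had 1.93 and 2.03, and 1.90 and 1.86. The gene of the Fe-S ATPase Rli1, rli1, had 1.88 and 1.97, nop14 (a U3 snoRNP protein) 1.84 and 2.06, and qrs1 (glutaminyl-tRNA ligase) 1.93 and 2.00. None of them stood apart from its neighbours beyond the scatter of the bins.

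Other members work in the nucleus or at membranes. The checkpoint mediator gene crb2, whose product acts in the response to DNA damage, had 1.83 and 1.98. Genes for the histone acetyltransferase Rtt109 (rtt109) and the CENP-B protein Cbh2 (cbh2) had 1.81 and 2.00, and 1.90 and 1.84. The mediator subunit gene med7 had 1.89 and 2.11, and the sorting nexin gene snx41 1.86 and 2.04. The 2 coding genes without a symbol were SPBC14F5.10C, at 1.86 and 2.11, and SPBC3F6.01C, at 1.96 and 1.93.

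At the boundaries, the non-coding SPNCRNA.6458 (4160829 to 4161437) crossed the left edge and had 1.54 and 1.76. To its left, pgk1, the gene of phosphoglycerate kinase, had 1.11 and 0.954, and SPNCRNA.6456 1.09 and 1.02. At the right, SPNCRNA.6495 was inside, at 1.90 and 1.93, while SPNCRNA.6496, at 1.15 and 1.09, and the ubiquitin ligase gene mrz1, at 1.01 and 0.988, were outside. The 27 coding genes of the flanks had 0.950 to 1.11 and 0.913 to 1.31, the highest being elc1, a short gene at an origin.

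The question put to the strand counts was whether forks crossed the segment in other directions in RZ112, or fired from other origins. The Polδ track of RZ112 followed the same course as in RZ57 and 856. It was slightly negative at the left edge, positive over most of the middle and strongly so before the origin at 4202701, strongly negative after that origin, and back above 0 at the right edge. Of the 19 windows of 3 kb in the segment, 14 had the same sign in all 6 Polδ libraries, as did all 10 windows of the left flank and all 10 of the right flank. In the other 5, no library was further than 0.103 from 0.

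Across the origin, the window at 4200001 had Polδ tracks of 0.514 and 0.603 in RZ112, 0.503 and 0.578 in RZ57 and 0.562 and 0.598 in 856. The next window, at 4203001, had -0.811 and -0.770 in RZ112, -0.832 and -0.762 in RZ57 and -0.794 and -0.708 in 856. The ranges of the 3 strains overlapped in both windows. Over single segment bins, the tracks of RZ112 correlated with the mean of RZ57 and 856 with a Pearson r of 0.984 and 0.980 across 190 bins of the same libraries, as a description.

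The log2 ratio of top to bottom counts was tested per 3 kb window across the genome with edgeR's quasi-likelihood test, 4×Polδ against the mean of 2×Polδ and WT with the same readout, with Benjamini-Hochberg adjustment. None of the 39 windows of the region passed an adjusted p of 0.05 for Polδ. Over the genome 0.62% did so, 26 of 4192. At an unadjusted p under 0.05 there were 2 windows in the region and 210 in the genome. In the segment the log2 changes lay between -0.34 and 0.24, with standard errors of 0.10 to 0.30. A change of about 3 standard errors did not pass in this fit, as the next values show, so smaller ones were not detectable in it.

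The 2 windows were the last and the first of the segment. Each includes a bin that overlaps an LTR, whose counts are uncertain as said above, and no fit without these bins was made. In the last, 4215001 to 4218000, the Polδ track was 0.086 and 0.075 in RZ112, 0.242 and 0.207 in RZ57 and 0.200 and 0.132 in 856, so both RZ112 values lay below the other 4. The log2 change was -0.34 (SE 0.11), with an unadjusted p of 0.00842 and an adjusted p of 0.535 by edgeR. In the first, 4161001 to 4164000, the track was -0.087 and -0.015 in RZ112, -0.182 and -0.102 in RZ57 and -0.148 and -0.104 in 856, and RZ112 lay above the others, without overlap. The log2 change was 0.24 (SE 0.11), with an unadjusted p of 0.0482 and an adjusted p of 0.974 by edgeR. The third smallest p belonged to a flank window, 4245001 to 4248000, with -0.20 (SE 0.12) and an adjusted p of 0.999.

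These calls depended on the fit. Same-numbered experiments deviated together in all 9 pairs of strains with the same readout (r 0.115 to 0.884). A replicate block in the fit of all 18 libraries left the region without a call, the smallest adjusted p there being 0.0958, while the genome count for Polδ went up to 57. A fit of the 6 Polδ libraries alone with the block, chosen after the data were seen, called 6 of the 39 windows, or 15.4%, but also 23.0% of all windows, 965 of 4192. The share in the region was thus not above the background of that fit.

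The 6 were the last window of the segment with -0.34 (adjusted p 0.000403), the window before it at 4212001 with -0.26 (adjusted p 0.00482), the first window with 0.24 (adjusted p 0.00856), and the flank windows at 4245001 with -0.20 (adjusted p 0.0147), 4149001 with 0.20 (adjusted p 0.0223) and 4146001 with 0.17 (adjusted p 0.0338). The segment windows among them were the 3 at its ends. In the window at 4212001 the Polδ track was -0.093 and -0.213 in RZ112, -0.002 and -0.096 in RZ57 and -0.030 and -0.133 in 856. The 16 windows between had log2 changes of -0.16 to 0.18, a median size of 0.05 and no change of track above 0.0611 in either experiment. The 3 were set apart from them after the values were seen. In the flanks the largest changes of track lay next to the segment. They were 0.0739 in size at 4218001 in experiment 1 and 0.0789 at 4158001 in experiment 2.

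**Figure D4:**
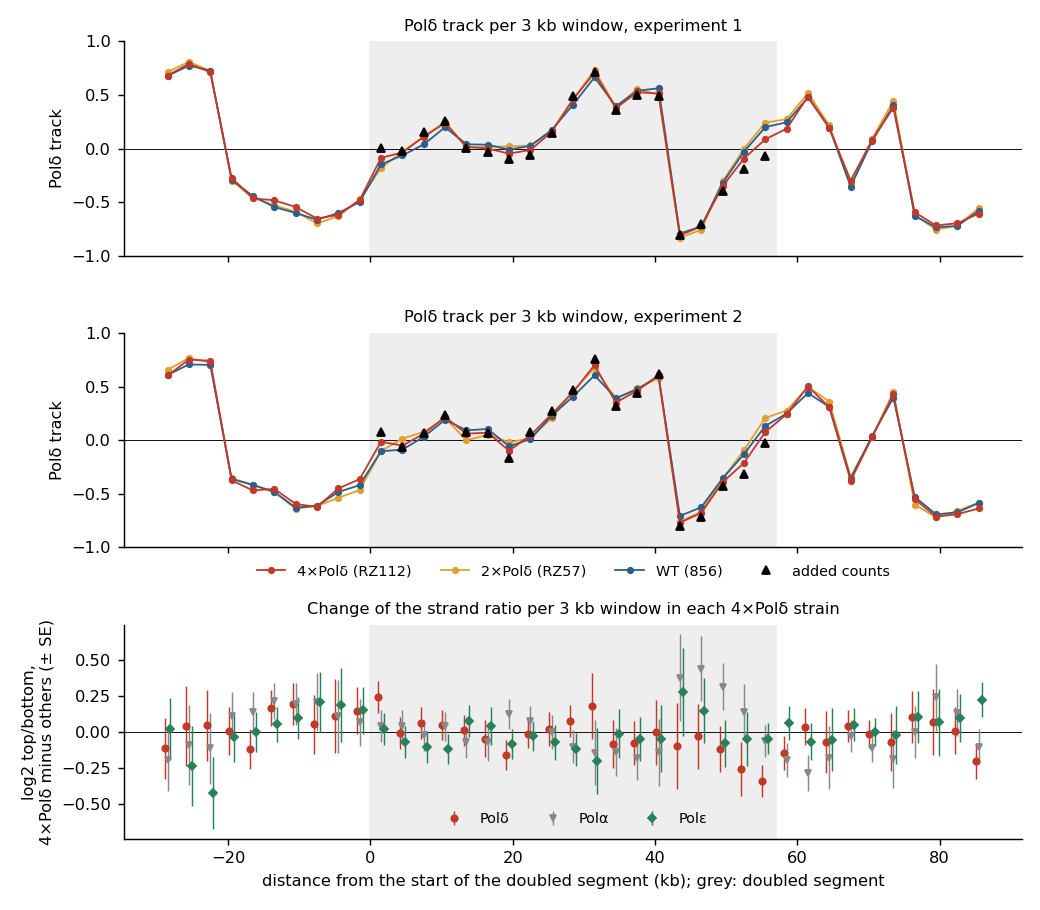
Upper panels, Polδ track per 3 kb window against distance from the start of the segment in kb in RZ112 (4×Polδ), RZ57 (2×Polδ) and 856 (WT), with the track of the counts added in RZ112 as triangles, in experiments 1 and 2; lower panel, log2 change of the top over bottom ratio, 4×Polδ minus the mean of 2×Polδ and WT, for each polymerase (bars, standard error). The lines overlay each other over most of the grey segment, and RZ112 departs from the other strains in the first window (log2 change 0.24) and the last (-0.34).

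The counts added in RZ112, taken per strand as its level minus the mean of RZ57 and 856, can also be written as a track. It is computed from the same strand counts and from the totals that chose the segment. This track is thus no independent measure of the departures described above. Over the 19 windows it had the sign of the other strains' track in 14 in experiment 1 and in 17 in experiment 2, and differed from it by a median of 0.0457 and 0.0653. The first window and the last 2 departed most, in both experiments. In the first the added counts had 0.00711 and 0.0794, against -0.165 and -0.103 in the mean of RZ57 and 856. In the last they had -0.0662 and -0.0291, against 0.221 and 0.169, but against 856 alone the added counts had -0.0427 and 0.0112, so their sign in experiment 2 depended on the strain they were set against. At 4212001 they had -0.187 and -0.317, against -0.0162 and -0.114.

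The strains with the other readouts have no excess in the segment, and their strand counts served as a comparison. In the last window the Polα track was 0.135 and 0.092 in RZ116, 0.216 and 0.139 in RZ68 and 0.120 and 0.065 in 1141, and the Polε track -0.102 and -0.151 in RZ118, -0.108 and -0.118 in RZ62 and -0.134 and -0.080 in 655. In the first window Polα had -0.062 and -0.074 in RZ116, -0.118 and -0.077 in RZ68 and -0.086 and -0.044 in 1141. Polε had 0.359 and 0.384 there in RZ118, 0.354 and 0.373 in RZ62 and 0.393 and 0.346 in 655. For Polε the values of the 3 genotypes overlapped in both windows. For Polα they did not all do so, since both RZ68 values lay above the other 4 in the last window and both RZ116 values lay above those of RZ68 in the first.

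None of the 39 windows passed for Polα, where 0.429% of windows in the genome did, nor for Polε, where 0.62% did (edgeR, adjusted p 0.05). At an unadjusted p under 0.05 there was 1 window for Polα (4221001, log2 change -0.29, SE 0.13, adjusted p 0.551) and none for Polε. The next for Polα were 4206001 with 0.44 (SE 0.23) and 4209001 with 0.31 (SE 0.16), both right of the origin. For Polε the smallest p values belonged to 4245001 with 0.22 (SE 0.12), 4137001 with -0.42 (SE 0.25) and 4170001 with -0.12 (SE 0.10).

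With experiment 1 of WT left out of the Polε fit, 4137001 passed (edgeR, adjusted p 0.0288), as 1 of 139 windows in the genome. The WT strain was then represented by experiment 2 alone, whose efficiencies at the 4 strongest origins of the region were 34.9% to 44.3%, against 48.5% to 73.1% in the other Polε libraries.

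A direct test of whether the Polδ change of 4×Polδ differed from those of Polα and of Polε, with the sign of Polε turned, found 0 of 39 windows, against 0.286% of windows in the genome. The last window of the segment had the smallest p in the region, with a difference of -0.33 (SE 0.13), an unadjusted p of 0.0283 and an adjusted p of 1.00 by edgeR. It was followed by 4179001 with -0.27 and the first window with 0.23. Thus the departure at the segment's ends was not shown to be particular to the strain with the excess.

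Single bins gave no call either. Of 390 bins 0 passed, against 0.0526% of bins in the genome, 22 of 41859, and 1 bin of the region had an unadjusted p under 0.05 (edgeR). At the left edge the first doubled bin, 4161001, had Polδ tracks of 0.48 and -0.28 in RZ112, 0.17 and -0.26 in RZ57 and 0.08 and -0.43 in 856, and a log2 change of 0.68 with an SE of 0.92. At the right edge the bin at 4217701 had -0.01 and -0.11 in RZ112, 0.32 and 0.09 in RZ57 and 0.29 and 0.06 in 856, with a change of -0.73 (SE 0.34). The bin at 4218001 had -0.27 and -0.05 in RZ112, 0.05 and 0.24 in RZ57 and 0.05 and 0.11 in 856, with a change of -0.81 (SE 0.47). Both RZ112 values were the lowest in each of these right-edge bins, and the adjusted p was 1.00 in all 3.

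Origins were called once, from the differentials of the tracks averaged over all 9 strains of the 3 polymerases, with the signs turned for Polδ and Polα. The efficiency is the size of the turn in percent. An origin used in RZ112 alone would be diluted in this average and could be missed. The list therefore cannot show whether RZ112 fired from origins that the other strains lack. The region held 22 of 2714 consensus origins, 10 in the segment and 12 in the flanks. In the segment 1 origin was strong and 9 had consensus efficiencies under 20%. Of the 22, 10 had a negative efficiency in all 6 Polε libraries, so that the call rests on the other polymerases there; the consensus of these was at most 4.22%, and none was among the 5 strongest. No origin of the region passed an adjusted p of 0.05 for RZ112 (limma with Benjamini-Hochberg adjustment), against 0.0737% of origins in the genome, 2 of 2714. With so few calls in the genome, their lack among the 22 does not show that these origins were unchanged. At an unadjusted p under 0.05 there was 1 in the region and 22 in the genome.

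The origin centred at 4202701, whose sequence is given above, overlaps SPNCRNA.6488 between alg6 and qrs1. Its efficiency was 74.2% and 73.7% in RZ112, 76.6% and 70.6% in RZ57 and 76.6% and 69.5% in 856. The difference of RZ112 from the others was 0.623 percentage points with an SE of 5.17, an adjusted p of 1.00 by limma and a sign that turned under 3 of 13 alternatives. The values of RZ112 lay within those of the other strains. With Polα it had 69.2% and 71.2% in RZ116, 82.3% and 74.8% in RZ68 and 73.6% and 69.1% in 1141. With Polε it had 67.3% and 63.7% in RZ118, 68.3% and 62.7% in RZ62 and 67.3% and 43.7% in 655, where the last value comes from the library that stood apart.

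The origin of the right flank at 4236301, at the end of SPNCRNA.1682 between top3 (DNA topoisomerase III) and ptf2, had 62.9% and 54.4% in RZ112, 69.4% and 55.3% in RZ57 and 64.8% and 53.1% in 856. That at 4139701 in the left flank, between prp24 and SPBC1861.05, had 64.5% and 62.6% in RZ112, 66.4% and 58.3% in RZ57 and 64.5% and 55.4% in 856. In RZ57 and 856 the experiments of 1 strain differed by more than 5 percentage points at both origins. The origin at 4226101, between SPBC16G5.07C and trp4, had 46.8% and 46.2% in RZ112, 49.4% and 48.4% in RZ57 and 49.1% and 44.9% in 856. The weaker one at 4144801, in the elongin C gene elc1, had 17.6% and 15.3% in RZ112, 18.8% and 16.1% in RZ57 and 18.4% and 16.3% in 856. The differences of these 4 were -2.02 (SE 7.43), 2.43 (SE 5.67), -1.48 (SE 5.86) and -0.938 (SE 2.72) percentage points, each with an adjusted p of 1.00 by limma. Their peak bins were 70% to 75.7% A or T.

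The 1 origin with an unadjusted p under 0.05 lay at 4217401, next to the right edge, and is named for that after its values were seen. It was weak, with 12.1% and 12.6% in RZ112, 7.5% and 8.18% in RZ57 and 6.65% and 6.87% in 856, and both RZ112 values lay above the other 4. All 6 Polε libraries had negative values there, -1.43% and -1.25% in RZ118, -3.91% and -1.04% in RZ62 and -2.01% and -2.95% in 655, so Polε showed no turn of an origin. The Polδ difference was 5.04 percentage points (SE 1.72), with an unadjusted p of 0.0130 and an adjusted p of 1.00 by limma. The efficiency is computed from the tracks of the bins at the segment's end, so it is no independent measure of the departure of the last window.

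**Figure D5:**
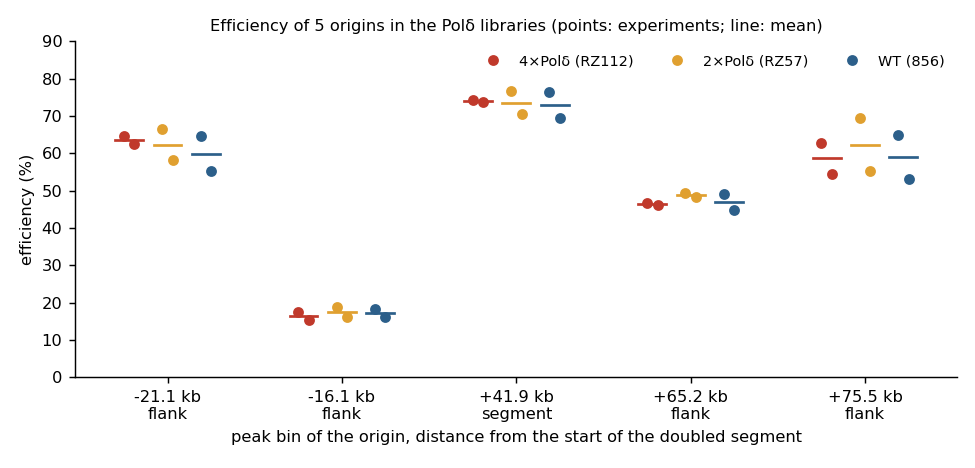
Efficiency in percent of the 5 strongest origins of the region in the Polδ libraries of RZ112 (4×Polδ), RZ57 (2×Polδ) and 856 (WT), ordered by the distance of the peak bin from the start of the segment in kb; points are experiments 1 and 2 and lines their mean. The origin in the segment had 74.2% and 73.7% in RZ112, within the 69.5% to 76.6% of the other strains.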

How the data were processed

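Per the labels, 9 S. pombe strains were each taken through 2 experiments, and the deposited files hold the authors' counts of Pu-Seq reads on the top and bottom strands per 300 bp bin. The submitters' processing notes name Bowtie2, whose version is not given in the sources used here, and the ASM294v2 build. The files' bins end with chromosome II at 4539804 bp of the ASM294v3 assembly used for annotation and sequence, and 2 loci of known state lay where it places them: ura4 had 0.745 to 1.25 of the median bin in 4×Polδ, which carries it as a marker, and 0 to 0.00942 in WT, and cdc6 had 3.88 to 4.38 in 4×Polδ, against 0.989 to 1.15 in WT. Genotypes follow the study's strain list.

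Libraries held 16062711 to 43905303 counts, with a median bin of 379 to 960. The 2 runs of experiment 1 differed less (chi-square of bin counts over its degrees of freedom 1.10 to 1.11) than the 2 experiments (18.5 to 40.5) and were summed. Totals were scaled to the median bin, and 4×Polδ was divided by the mean of 2×Polδ and WT. Strand counts of bins with at least 10 counts, and of 3 kb windows, were fitted with edgeR 4.0.16 (glmQLFit), with a term for each library and 1 strand ratio per strain, all 18 libraries sharing the spread. Origins were called from tracks smoothed over 3 bins, keeping peaks above the 30th percentile, and compared with limma 3.58.1. Each p was adjusted over the whole genome by the Benjamini-Hochberg method. In each library 1 to 8 bins without a count were interpolated for origin calling. Repeats were aligned with blastn 2.17.0. The models were tested on simulated data. Alternatives were DESeq2 1.42.0, TMM, other references, filters and window sizes, each library left out, and the experiment number as a block. The members, lists and tests were chosen with earlier results of these data known. Named were the edge bins, the 3 windows with the smallest p for each test, the 5 strongest origins, and the genes at the edges, at those origins, and with a symbol in the segment. Values of 1 of these genes are not reported here.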

Additional observations from a re-analysis of the deposited data

How the results depend on the processing

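The excess of RZ112 over the segment, 1.94 as the mean of both experiments, was 1.87 to 1.95 under the other references, scalings and left-out libraries tried. The edges moved by at most 1 bin. Against the mean of all 8 other strains they lay at 4161301 and 4218000 in experiment 1, and against WT alone the right edge lay at 4218000 in experiment 2. With single libraries left out the left edge ranged from 4160701 to 4161001 and the right edge from 4218000 to 4218300. The track of the added counts in the last window was -0.0476 as the mean of both experiments, and -0.0157 against WT alone, with the experiments at -0.0427 and 0.0112, of opposite sign.

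No window, bin or origin of the region passed under any alternative, with 2 exceptions. The Polδ libraries alone with the replicate block, chosen after the data were seen, called 6 windows, and with single libraries left out the Polε count ranged from 0 to 1. The replicate block in the fit of all libraries left 0 calls in the region for windows, bins and origins. Over the genome the Polδ windows that passed numbered 26, against 57 with the block, 58 by DESeq2, 16 in 9 kb windows, 18 with the Polδ libraries alone and 9 to 22 with a library left out. With the block, 182 bins passed, against 22 without it and 0 with the Polδ libraries alone.

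Of 284 values of the 25 named windows, bins and origins under alternatives, 262 kept their direction and side of the threshold, 4 passed it and 18 turned their sign. None of the last was called. With the first run only, the origin at 4202701 turned to -0.065 percentage points and the bin at 4161301 to -0.081 on the log2 scale, which was also -0.022 against WT alone. The others turned with a library left out, when the origins at 4202701, 4236301 and 4144801 ranged from -1.15 to 2.40, from -6.26 to 2.22 and from -2.09 to 0.216 percentage points. On the log2 scale the bins ranged from -0.50 to 1.85 at 4161001, from -0.089 to 0.16 at 4161301, from -1.03 to 0.062 at 4217401 and from -0.62 to 0.19 at 4218301, and the Polε window at 4170001 from -0.25 to 0.0083. The cause was not tested. With 2 experiments of 1 strain, the last window's change of -0.34 (SE 0.11) was not called without the block, so smaller changes could not be told from 0 in that fit. Windows beside the origin at 4202701 had larger standard errors, 0.23 at 4200001 and 0.30 at 4203001. Changes larger than 0.34 could therefore be missed there too.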

Other observations

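The segment holds another repeated pair besides the edge repeats. The 5S rRNA genes SPRRNA.37, at 4161556 to 4161775 just inside the left edge, and SPRRNA.38, at 4210360 to 4210500, matched over 141 columns with 97.2% identity and lie in the same orientation. Their RZ112 ratios ranged from 1.81 to 2.01 in experiment 1 and from 1.98 to 2.17 in experiment 2.

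Outside the segment, blocks of its length had ratios to strains with the same readout between 0.527 and 1.90 over all 18 libraries. The segment itself, at 1.88 and 2.01 in RZ112, was not among these blocks. Their highest values, 1.90 and 1.53 in experiment 1 of RZ68, were at the ends of chromosome III. The first of these had 1.24 in experiment 2 of RZ68. The block that holds cdc6, at 2736001 to 2793000 of chromosome II, had 1.27 and 1.30 in RZ112, 1.27 and 1.28 in RZ116 and 1.29 and 1.27 in RZ118.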
